A study of Mus with 12 samples.

Results

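The phagocyte NADPH oxidase was followed in mouse blood through 5 of its subunit genes, Cyba, Cybb, Ncf1, Ncf4 and Rac2, which were taken by name from the 25247 genes of the blood table. Transcript levels are given in FPKM, fragments per kilobase of gene scaled to the library's total, so that levels of different genes are compared per length. All 5 genes passed the filter on low values, under which a gene needs 3 or more libraries at an FPKM of 1 or above and which 5527 genes passed. Cybb reached that level in 10 libraries and each of the other genes in 12, so none of them passed through a single group. Each library is the blood of 1 female BALB/c mouse, bought at 6 weeks of age and bled on day 30, and 3 libraries stand for each of the 4 groups. The study had 6 mice in each group, and how mice were picked for sequencing is not stated. The Solvent group had only the vehicle, acetone and olive oil, on the shaved back. The DNCB group was sensitised with 1% 2,4-dinitrochlorobenzene (DNCB), a contact sensitiser that produces atopic dermatitis-like skin lesions, and challenged with 0.5% DNCB. Both MSC groups had the same DNCB applications and also received human umbilical cord mesenchymal stem cells (MSC), in 4 injections from day 13 to day 25 of 2e6 cells in 100 μL. In the scMSC group the cells went under the dorsal skin, and in the scivMSC group 50 μL went under the skin and 50 μL into the tail vein. No group received MSC without DNCB, and the injected cells were human cells in mice. No injection without cells is described for the Solvent or DNCB group, so effects of the cells and of the injections cannot be told apart.

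The phagocyte oxidase is a membrane enzyme that moves electrons from NADPH across the membrane onto oxygen and so makes superoxide, the start of the respiratory burst with which neutrophils and monocytes kill ingested microbes. Its core is a pair of membrane proteins, the catalytic chain encoded by Cybb and the smaller partner encoded by Cyba, which stabilise each other. In resting cells the organiser encoded by Ncf1 and the lipid-binding adaptor encoded by Ncf4 wait in the cytosol, and on stimulation they join the core together with a Rac GTPase, chiefly Rac2 in neutrophils. Loss of Cybb, Cyba, Ncf1 or Ncf4 is known as a cause of chronic granulomatous disease in people, and Rac2 is also used by lymphocytes for signalling and movement.

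The libraries held 52.18e6 to 65.14e6 estimated counts, which stand for 13.04e6 to 16.28e6 fragments at about 4 counts each. Haemoglobin genes took most of them, from 78.41% of the counts in DNCB replicate 2 to 89% in scivMSC replicate 2. Group means were 83.2% ± 3.10 in Solvent, 81.2% ± 2.40 in DNCB, 85.6% ± 0.932 in scMSC and 87.3% ± 2.13 in scivMSC (SD, n = 3 each). The number of genes at an FPKM of 1 or above was 4346 to 6371 in Solvent, 4362 to 5710 in DNCB, 3183 to 3900 in scMSC and 1804 to 3140 in scivMSC, lowest in scivMSC replicate 2. Without that library the counts of subunits called lower in scivMSC were 5 against DNCB (5 with it), 0 against scMSC (1 with it) and 2 against Solvent (3 with it). The part of the low gene number itself in the scivMSC results was not tested. Of the marker lists for blood cells, the summed FPKM of 10 neutrophil markers lay between 220.7 and 445.2 in Solvent, 6995 and 10978 in DNCB, 578.8 and 721 in scMSC, and 246.9 and 743.5 in scivMSC. The summed FPKM of 8 monocyte markers lay between 8.40 and 22.3 in Solvent, 24.8 and 44.6 in DNCB, 12.4 and 12.8 in scMSC, and 8.78 and 10.2 in scivMSC. No marker of either list was at 0 in every library of a group. With haemoglobin left out of the library totals, the counts of subunits called were 5 in DNCB against Solvent and 5 in each MSC group against DNCB. The median log2 fold change of all genes with these totals was -0.099 in DNCB against Solvent. From DNCB it was -0.251 in scMSC and -0.988 in scivMSC, so the count in scivMSC says little about the oxidase by itself. The share of all genes called with these totals is not given here. The part of these cell types in the levels below was not tested, and in whole blood fewer cells of a type and less RNA per cell cannot be told apart.

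The 5 genes lie on 4 chromosomes in the coordinates of the deposited table, which fit build GRCm38. Cyba (ENSMUSG00000006519) spans chr8:122424776-122432930 on the minus strand and Cybb (ENSMUSG00000015340) spans chrX:9435252-9487771 on the minus strand. Ncf1 (ENSMUSG00000015950) spans chr5:134220053-134229625 on the minus strand. It shares 4303 bases with Gtf2ird2 on the plus strand, whose FPKM ran from 0.00866 to 0.776, and since strand-specific counting is not stated, a small share of its reads may belong to that gene. Ncf4 (ENSMUSG00000071715), at chr15:78244801-78262580 on the plus strand, and Rac2 (ENSMUSG00000033220), at chr15:78559167-78572783 on the minus strand, are 296586 bases apart. Cyba, Cybb, Ncf4 and Rac2 overlap no other gene of the table. The oxidase transcripts were of middle to high abundance for whole blood, with mean FPKM over the 12 libraries ranking 243 (Rac2), 329 (Cyba), 476 (Ncf4), 719 (Ncf1) and 1414 (Cybb) among the 5527 genes.

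The order of the levels was Rac2, Cyba, Ncf4, Ncf1 and then Cybb, in the means of each of the 4 groups. Rac2 stood above Cyba in 11 of 12 libraries, the exception being scivMSC replicate 2, and each of the other steps in that order held in 12 of 12. In the scivMSC group the means of Rac2 and Cyba, 8.19 ± 3.39 and 7.48 ± 2.27 FPKM (SD, n = 3 each), differed by less than their spread. The transcript of the GTPase was thus the most abundant and that of the catalytic chain the least abundant of the set, as levels per length.

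Cybb, the catalytic chain, had FPKM of 4.74, 3.05 and 1.29 in the Solvent mice and 8.15, 12.3 and 7.33 in the DNCB mice. The lowest DNCB mouse was above the highest Solvent mouse. Its FPKM was 1.85, 1.24 and 1.42 in scMSC and 1.32, 0.377 and 0.931 in scivMSC. Both MSC groups lay below DNCB, and they overlapped each other and the Solvent group. The lowest value, in scivMSC replicate 2, rested on 123 estimated counts, or about 30.75 fragments, the fewest for any of the 5 genes in any library.

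Cyba, the membrane partner of Cybb, had FPKM of 22.7, 15.3 and 12.3 in Solvent and 46.4, 70.5 and 43.9 in DNCB. Again the groups did not overlap. It had 16.1, 10.4 and 10.7 in scMSC, the first within the Solvent range and the other two below it, and 9.53, 5.03 and 7.89 in scivMSC, below every Solvent and every scMSC mouse. The group means were 16.8 ± 5.38 in Solvent, 53.6 ± 14.7 in DNCB, 12.4 ± 3.23 in scMSC and 7.48 ± 2.27 in scivMSC (FPKM, SD, n = 3 each).

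Ncf1, the organiser of the cytosolic complex, had FPKM of 6.38, 3.63 and 2.77 in Solvent and 17.7, 31.4 and 18.2 in DNCB. The MSC groups had 2.99, 3.42 and 3.34 (scMSC) and 3.20, 1.23 and 2.58 (scivMSC), and these 2 groups and the Solvent group all overlapped one another. Ncf4, the adaptor that binds phosphoinositide lipids of the phagosome, showed the same arrangement. Its FPKM was 8.54, 6.62 and 4.00 in Solvent, 28.9, 52.15 and 31.4 in DNCB, 5.97, 5.08 and 5.92 in scMSC, and 5.60, 4.05 and 3.11 in scivMSC. For both genes only the DNCB mice stood apart from the other 9.

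Rac2, the Rac GTPase of blood-forming cells, had FPKM of 39.3, 25.3 and 19.9 in Solvent and 59.4, 93.2 and 60.3 in DNCB. It had 18.5, 14.0 and 18.6 in scMSC and 11.6, 4.77 and 8.25 in scivMSC. No pair of groups overlapped, so Rac2 alone of the 5 genes was ordered from DNCB over Solvent and scMSC to scivMSC in every mouse. In all 5 genes the highest DNCB value was that of DNCB replicate 2 and the highest Solvent value that of Solvent replicate 1, the libraries with the lowest haemoglobin share of their groups.

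**Figure D1:**
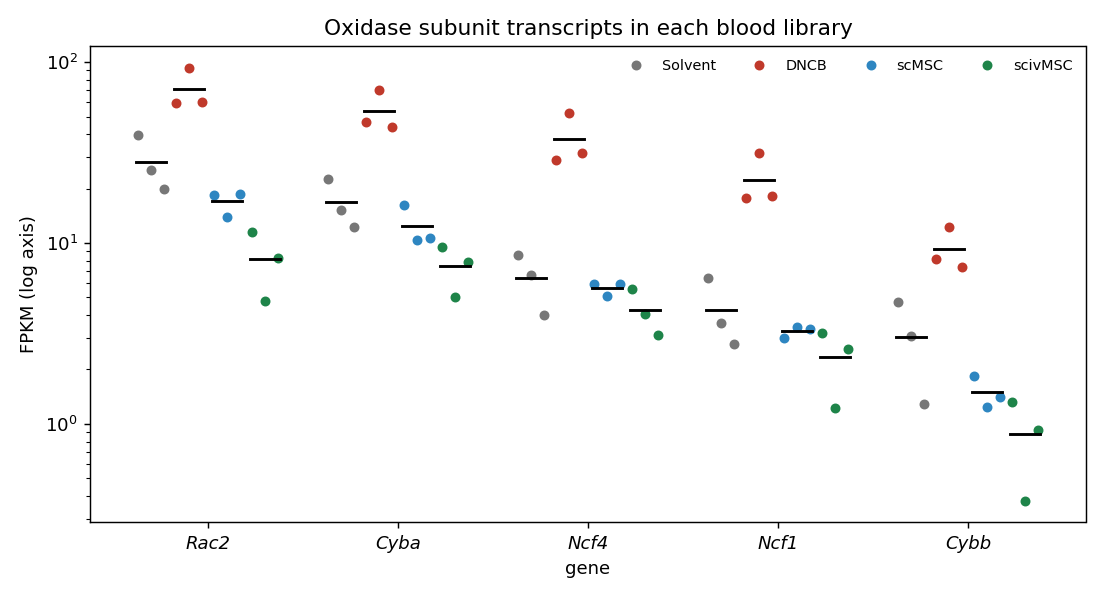
FPKM (log axis) of the 5 subunit genes in each of the 12 blood libraries, 1 point per mouse, coloured by group, with black bars at the group means (n = 3). The DNCB points stand above those of every other group for each gene, and the scivMSC points are lowest for Rac2 and Cyba.

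The comparison of DNCB with Solvent asked what the sensitiser changed in blood. All 5 genes rose, with edgeR's quasi-likelihood test and Benjamini-Hochberg adjustment over the 5527 genes, at an adjusted p under 0.05 and a fold change over 2. Of all genes tested, 15.6% were called higher in DNCB. The log2 fold changes were 2.55 for Ncf4 (SE 0.36, adjusted p = 9.66e-05), 2.39 for Ncf1 (SE 0.40, adjusted p = 0.000429), 1.68 for Cyba (SE 0.35, adjusted p = 0.00251), 1.61 for Cybb (SE 0.47, adjusted p = 0.02) and 1.34 for Rac2 (SE 0.34, adjusted p = 0.00869), against a median of 0.06 over all genes tested. As folds these are 5.86, 5.26, 3.20, 3.06 and 2.52, so the estimates were larger for the cytosolic subunits than for the membrane pair and the GTPase. The groups did not overlap for 5 of the 5 genes, and 41.5% of all genes tested were without overlap. Under TMM scaling, which assumes that most genes do not differ, 5 of 5 were again called higher, with 16.1% of all genes called higher. Without Solvent replicate 3 or without DNCB replicate 2, 3 of 5 were called, Cybb and Rac2 falling short in both, and without Solvent replicate 2, Cybb alone fell short.

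The comparisons of the MSC groups with DNCB asked what each route of injection changed in sensitised mice. Both use the same 3 DNCB mice, which the comparison with Solvent also uses. The study lists Cyba, Ncf1, Ncf4 and Rac2 among genes higher in DNCB than in the MSC groups, a list chosen in part on these libraries, so their direction here is not independent evidence. In scMSC the 5 genes fell by 2.07 (Rac2, SE 0.34, edgeR adjusted p = 0.000563), 2.12 (Cyba, SE 0.36, adjusted p = 0.000633), 2.64 (Cybb, SE 0.49, adjusted p = 0.00113), 2.74 (Ncf4, SE 0.36, adjusted p = 0.000111) and 2.79 (Ncf1, SE 0.41, adjusted p = 0.000215) on the log2 scale, which are folds of 4.20 to 6.93. All 5 were called lower, with 24.9% of all genes called lower and a median of -0.63 over all genes. Under TMM scaling the same 5 were called lower, beside 12.3% of all genes, and the log2 fold changes were smaller, at -1.37 for Rac2, -1.42 for Cyba, -1.93 for Cybb, -2.01 for Ncf4 and -2.05 for Ncf1. The groups did not overlap for any of the 5, and 55.3% of all genes were without overlap.

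In scivMSC the log2 fold changes from DNCB were -2.84 for Cyba (SE 0.37, edgeR adjusted p = 1.25e-05), -3.12 for Rac2 (SE 0.36), -3.14 for Ncf4 (SE 0.37), -3.26 for Ncf1 (SE 0.42) and -3.40 for Cybb (SE 0.50), which are folds of 7.17 to 10.6. The highest adjusted p of the 5 was that of Cybb, 3.38e-05. All 5 were called lower, but 62% of all genes were called lower in this comparison and the median of all genes was -1.53, so the count of 5 says little about the oxidase by itself. Under TMM scaling the median of all genes was 0.04, 18.9% of all genes were called lower, and the 5 oxidase genes were again called lower, at -1.22 (Cyba), -1.46 (Ncf4), -1.54 (Rac2), -1.68 (Ncf1) and -1.87 (Cybb). The move from total counts to TMM thus took more than 1 log2 unit from each change but left its sign. Groups without overlap were found for 5 of 5 genes and for 73.3% of all genes.

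**Figure D2:**
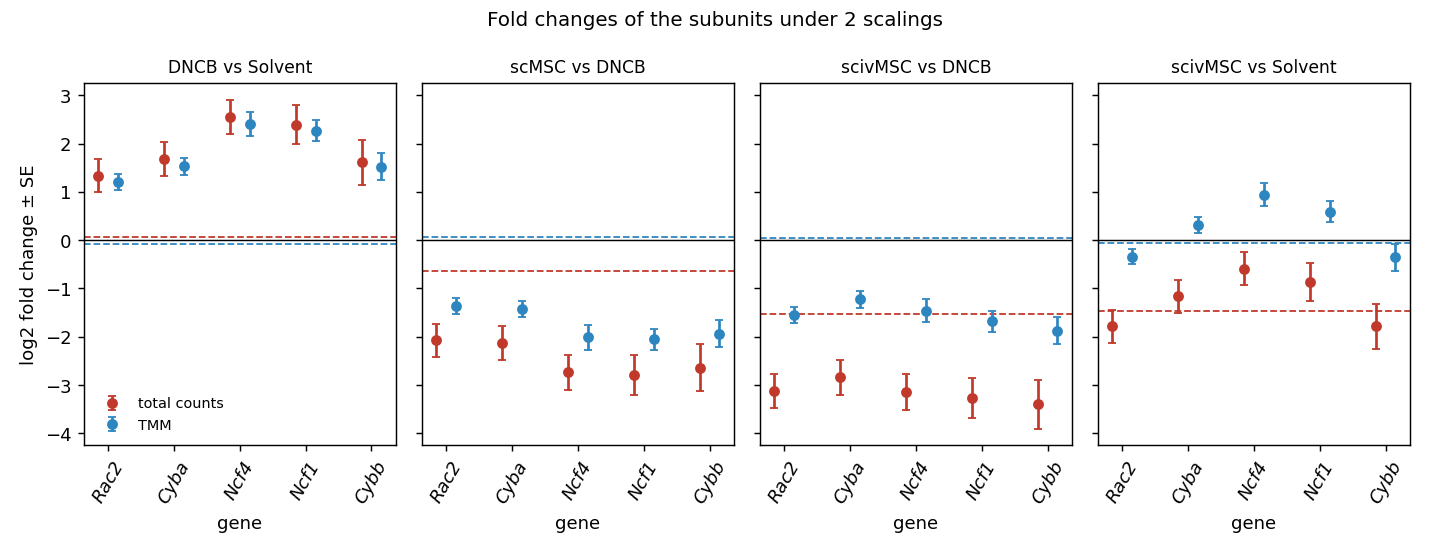
Log2 fold changes (points, bars ± SE) of the 5 subunit genes in 4 comparisons, with libraries scaled by total counts (red) or by TMM (blue), and the median over all 5527 genes as a dashed line in the same colour. The 5 genes lie above 0 in DNCB against Solvent and below 0 in both MSC groups against DNCB under both scalings, while in scivMSC against Solvent Cyba, Ncf4 and Ncf1 are below 0 with total counts and above 0 with TMM.

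Between the routes, only Rac2 was called lower in scivMSC than in scMSC, with a log2 fold change of -1.05 (SE 0.33, edgeR adjusted p = 0.0285), and 30.4% of all genes were called lower. The values of the other members were -0.72 for Cyba, -0.76 for Cybb, -0.47 for Ncf1 and -0.40 for Ncf4, against a median of -0.87 over all genes. Rac2 and Cyba were without overlap, as were 50.5% of all genes. Under TMM scaling 0 of 5 were called by edgeR, with 4.92% of all genes called lower and 1 of the 5 (Ncf4) at an unadjusted p under 0.05. DESeq2 also called 0 of 5 and limma called 1, Rac2. With TMM, Rac2 was at -0.18, and Cyba, Cybb, Ncf1 and Ncf4 had values of 0.20, 0.06, 0.37 and 0.56. The Rac2 call was also lost without scMSC replicate 1 or 3 and without scivMSC replicate 2 or 3. Without scivMSC replicate 1, Cybb was called lower as well, which made 2 of 5.

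Against Solvent, 0 of 5 genes were called in scMSC by edgeR, where 0.326% of all genes were called lower, and 2 of 5 (Cybb and Rac2) had an unadjusted p under 0.05. DESeq2 and limma also called 0 of 5. The log2 fold changes were -0.19 for Ncf4, -0.40 for Ncf1, -0.45 for Cyba, -0.73 for Rac2 and -1.02 for Cybb, with a median of -0.59 over all genes, and those of Ncf4, Ncf1 and Cyba were above 0 under TMM scaling (0.39, 0.22 and 0.11). Rac2 was the 1 gene of 5 without overlap, beside 47.6% of all genes. In scivMSC against Solvent, Cyba (-1.16, SE 0.35, edgeR adjusted p = 0.00801), Cybb (-1.79, SE 0.47, adjusted p = 0.00386) and Rac2 (-1.78, SE 0.34, adjusted p = 0.000458) were called lower, beside 59.2% of all genes and a median of -1.47. Ncf1 and Ncf4 were not called, at -0.87 and -0.59. Under TMM scaling 0 of 5 were called by edgeR, with 13.4% of all genes called lower and 2 of the 5 (Ncf1 and Ncf4) at an unadjusted p under 0.05. DESeq2 also called 0 of 5, and limma 3. With TMM, Ncf4, Ncf1 and Cyba had values of 0.94, 0.59 and 0.31, while Rac2 and Cybb had -0.34 and -0.35. The Cyba call was lost without Solvent replicate 1, without scivMSC replicate 2 and with haemoglobin left out of the library totals, and Ncf1 was called lower without Solvent replicate 3 or scivMSC replicate 1. Groups were without overlap for 2 of 5 genes, Cyba and Rac2, and for 68.7% of all genes.

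The scaling of a library cancels in the ratio of 2 of its genes, apart from the small constant added to each value. The measure is the difference of log2(FPKM + 0.1), compared over the 4 groups with an exact permutation test that took in all 369600 assignments of mice to groups and adjusted over the 10 pairs. Of the 10 pairs, 2 differed between the groups, Ncf1 and Ncf4 relative to Rac2. With a constant of 1 in place of 0.1, 6 pairs did, and the pairs added were Cyba to Rac2 and Cybb to Ncf1, Ncf4 and Rac2, each with an adjusted exact permutation p of 0.0274. The log2 ratio of Ncf1 to Rac2 was -2.60, -2.77 and -2.80 in the Solvent mice and -1.75, -1.57 and -1.72 in the DNCB mice. It was -2.59, -2.00 and -2.44 in scMSC and -1.82, -1.88 and -1.64 in scivMSC (exact permutation p = 0.00039, adjusted p = 0.0039). Every DNCB and scivMSC mouse was thus above every Solvent and scMSC mouse. The log2 ratio of Ncf4 to Rac2 was -2.19, -1.91 and -2.28 in Solvent, -1.04, -0.84 and -0.94 in DNCB, -1.62, -1.45 and -1.64 in scMSC, and -1.03, -0.23 and -1.38 in scivMSC (exact permutation p = 0.00201, adjusted p = 0.0101). Here too the DNCB and scivMSC mice were all above the Solvent and scMSC mice. For the pair DNCB and Solvent the change was 1.04 for Ncf1 and 1.19 for Ncf4 relative to Rac2; both had p = 0.1 in a two-sided exact permutation test, which is as low as a comparison of 3 mice with 3 can go.

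With the constant of 0.1 the remaining 8 pairs did not pass. Cyba to Rac2 passed without scMSC replicate 1, scMSC replicate 3 or scivMSC replicate 1, Cyba to Ncf1 without scMSC replicate 1, Cyba to Cybb without Solvent replicate 3, and Cyba to Ncf4 and Cybb to Ncf4 without scivMSC replicate 3, so that up to 4 pairs passed with a library left out. With all libraries the ratio of Cyba to Rac2 came nearest, with means of -0.73 ± 0.05 in Solvent, -0.41 ± 0.05 in DNCB, -0.47 ± 0.30 in scMSC and -0.09 ± 0.18 in scivMSC (SD, n = 3 each, exact permutation p = 0.0156, adjusted p = 0.0522). The 2 membrane genes had a log2 ratio of Cyba to Cybb between 2.24 and 3.43 (adjusted exact permutation p = 0.219), and the 2 cytosolic genes a ratio of Ncf1 to Ncf4 between -1.65 and -0.26 (adjusted exact permutation p = 0.855). Means of the latter were -0.59 ± 0.23 in Solvent, -0.74 ± 0.04 in DNCB, -0.78 ± 0.21 in scMSC and -0.90 ± 0.70 in scivMSC (SD, n = 3 each), and the value of -1.65 is that of scivMSC replicate 2.

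**Figure D3:**
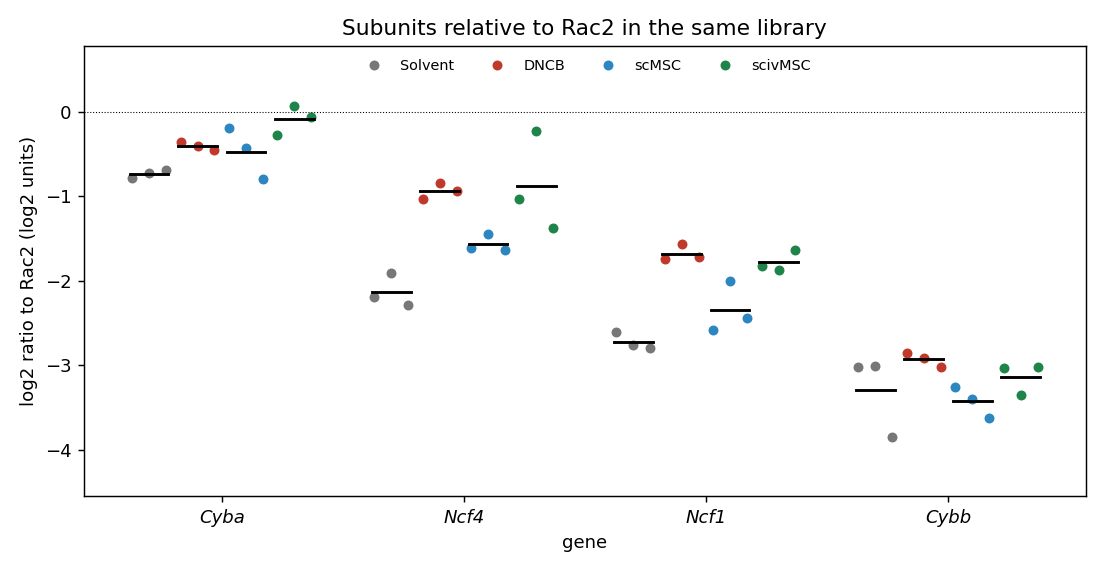
Log2 ratio of Cyba, Ncf4, Ncf1 and Cybb to Rac2 in the same library, 1 point per mouse, with bars at the group means (n = 3). For Ncf4 and Ncf1 the DNCB and scivMSC points are all above the Solvent and scMSC points, and for Cybb the Solvent points overlap those of every other group.

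Ptprc encodes the common leukocyte antigen, a phosphatase on the surface of white cells that mature red cells lack, and it served as a leukocyte reference within each library. Its own FPKM was 8, 7.41 and 6.61 in Solvent, 8.74, 12.3 and 11.6 in DNCB, 5.86, 5.44 and 4.82 in scMSC, and 2.54, 0.744 and 1.94 in scivMSC. Ptprc was thus lowest in every scivMSC mouse, and its ratios in that group rest on a small denominator. Lymphocytes carry Ptprc too, and their markers moved with the groups. In DNCB against Solvent 8 of 9 T cell markers, 8 of 8 B cell markers and 3 of 4 tested NK cell markers were called lower, beside 4.87% of all genes. TMM scaling called 8 of 9, 8 of 8 and 4 of 4 lower there, beside 11.5% of all genes. In scivMSC against scMSC 9 of 9 T cell and 6 of 8 B cell markers were called lower, beside 30.4% of all genes. Under TMM scaling 0 of 9 and 0 of 8 were called lower in that comparison, beside 4.92% of all genes. The summed FPKM of the T cell markers lay between 54.8 and 92.2 in Solvent, 20.9 and 30 in DNCB, 27.9 and 41.5 in scMSC, and 7.87 and 20.1 in scivMSC. That of 6 NK cell markers lay between 25.7 and 31.5, 8.86 and 12.7, 4.92 and 13.6, and 4.32 and 12.25 in the same order, and no marker of these lists was at 0 in every library of a group. The part of lymphocytes in the ratios to Ptprc and to Rac2 was not tested. Relative to Ptprc, the 5 genes differed over the 4 groups with adjusted exact permutation p-values from 0.00714 (Ncf1) to 0.0173 (Cybb and Rac2), over a family of 5 that shares 1 denominator. The log2 ratio of Ncf1 was -0.32, -1.01 and -1.22 in Solvent, 1.01, 1.35 and 0.64 in DNCB, -0.95, -0.66 and -0.52 in scMSC, and 0.32, 0.65 and 0.40 in scivMSC. That of Cyba averaged 1.14 ± 0.32 in Solvent, 2.27 ± 0.32 in DNCB, 1.17 ± 0.26 in scMSC and 2.15 ± 0.40 in scivMSC (SD, n = 3 each).

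For each of the 5 genes, DNCB was above Solvent and scMSC was below DNCB without overlap, and scivMSC was above scMSC without overlap. In scivMSC against scMSC Ptprc itself had a log2 fold change of -1.62, and the median over all genes was -0.87. A gene at that median would thus also stand higher relative to Ptprc in scivMSC. The share of all genes without overlap was not computed for these ratios. The DNCB mice exceeded the Solvent mice by 2.00 for Ncf4, 1.85 for Ncf1, 1.17 for Cybb, 1.13 for Cyba and 0.81 for Rac2, in log2 units relative to Ptprc. The scivMSC mice differed from the DNCB mice by -0.12 for Cyba to -0.65 for Cybb and overlapped them for every gene except Cybb. Relative to Itgb2, an integrin chain of leukocytes that is carried in quantity by phagocytes, 2 of the 5 genes differed over the groups, Ncf1 and Rac2. Without DNCB replicate 2 the ratios to Ptprc passed for 3 of 5, Cybb and Rac2 having an adjusted exact permutation p of 0.0555.

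**Figure D4:**
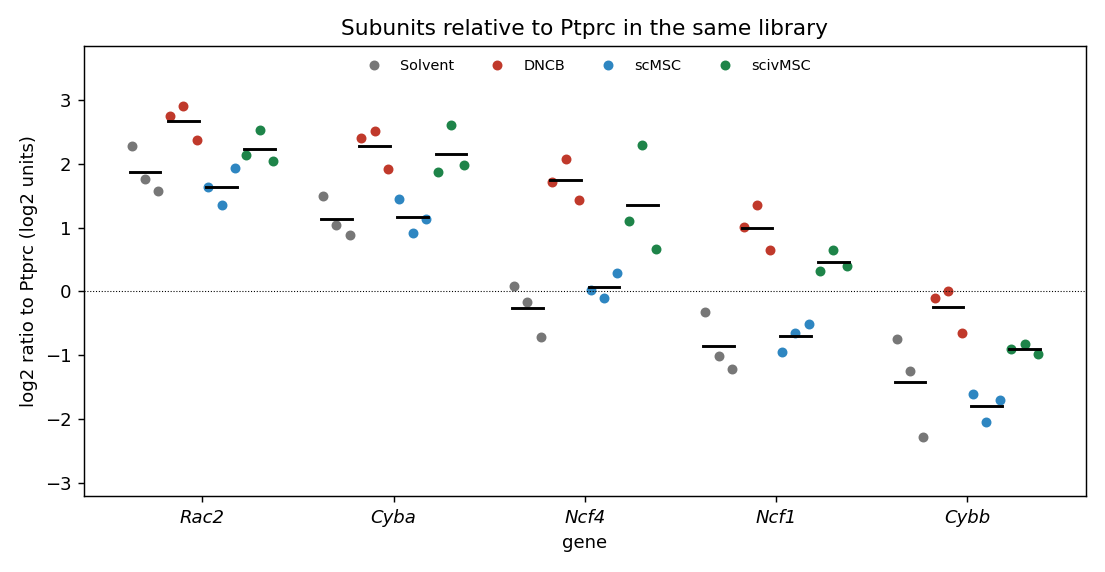
Log2 ratio of the 5 subunit genes to Ptprc in the same library, 1 point per mouse, with bars at the group means (n = 3). The DNCB and scivMSC points lie above the scMSC points for every gene, and the DNCB points lie above the Solvent points.

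Neutrophil markers rose far more than the oxidase did. In DNCB against Solvent the 10 markers (S100a8, S100a9, Cxcr2, Csf3r, Mmp8, Mmp9, Retnlg, Camp, Ltf and Ngp) were all called higher, beside 15.6% of all genes. Their median log2 fold change was 4.96, where the median of the 5 oxidase genes was 1.68 and that of all genes tested was 0.06. Against the mean of the 10 markers in the same library, the log2 level of Cyba was 1.27, 0.53 and 0.77 in Solvent and -2.38, -2.39 and -2.44 in DNCB. It was -0.75, -1.28 and -1.49 in scMSC and -1.71, -0.91 and -1.27 in scivMSC. Cyba thus stood above the average neutrophil marker in the Solvent mice and below it in all others. The difference of DNCB from Solvent on this measure was -3.59 for Rac2, -3.26 for Cyba, -3.22 for Cybb, -2.54 for Ncf1 and -2.40 for Ncf4 in log2 units. Each of the 5 differed over the 4 groups, with adjusted exact permutation p-values from 0.000325 (Rac2) to 0.00195 (Ncf4). All 5 ratios share 1 denominator, the marker list, whose median rise in DNCB was above the rise of every subunit. A group difference in each ratio follows from that larger rise, so the p-values are not 5 separate results about the subunits. The smallest raw p, 6.49e-05 for Rac2, is also the smallest that these assignments can give.

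**Figure D5:**
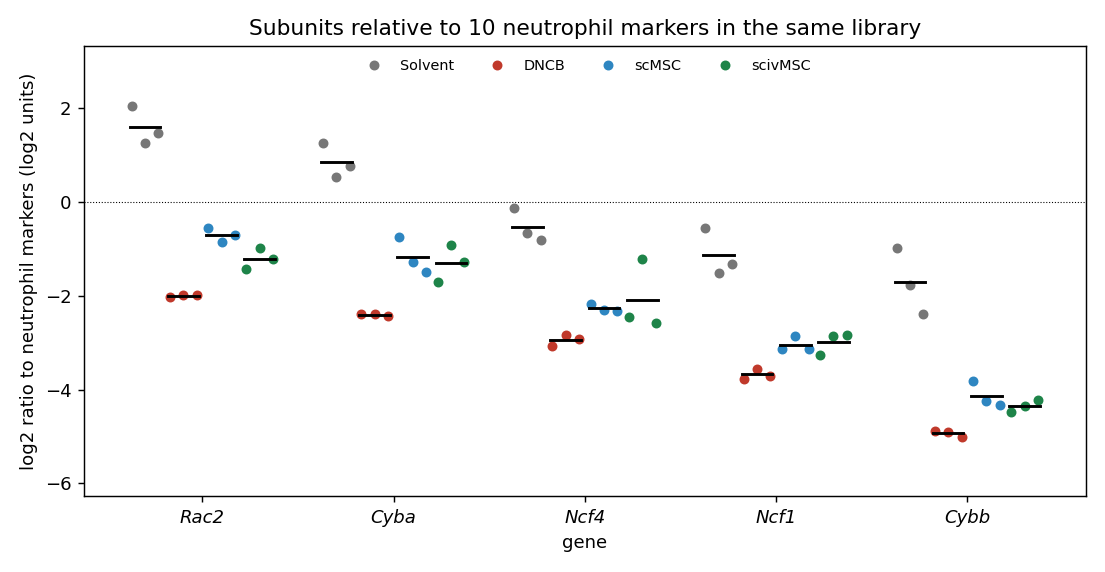
Log2 ratio of the 5 subunit genes to the mean of 10 neutrophil markers in the same library, 1 point per mouse, with bars at the group means (n = 3). For every gene the Solvent points are the highest and the DNCB points the lowest, with both MSC groups between them.

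Relative to the mean of the 8 monocyte markers, which are given as values without a test, the DNCB group stood highest. The log2 level of Ncf4 averaged 2.26 ± 0.23 in Solvent, 4.14 ± 0.08 in DNCB, 2.73 ± 0.11 in scMSC and 3.25 ± 0.46 in scivMSC (SD, n = 3 each), and that of Cybb 1.1 ± 0.34, 2.15 ± 0.14, 0.87 ± 0.14 and 1.00 ± 0.39. For all 5 genes the DNCB mean was the highest of the 4.

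Among other oxidase genes, Rac1, the Rac GTPase of most other tissues, had FPKM of 13.7, 7.88 and 8.29 in Solvent, 16.7, 22.1 and 14.2 in DNCB, 8.75, 7.43 and 9.20 in scMSC, and 10.0, 7.48 and 9.14 in scivMSC. Its log2 fold change in DNCB against Solvent was 0.83 (SE 0.29, edgeR adjusted p = 0.0486), under the fold limit, and in scivMSC against DNCB it was -0.998 with total counts and 0.68 with TMM scaling. Of 11 such genes considered, 6 were in the table and 2 were tested, Rac1 and Cybc1, a chaperone of the membrane pair. In DNCB against Solvent 0 of 2 were called by edgeR, DESeq2 or limma, and 1 (Rac1) had an unadjusted p under 0.05. From DNCB, edgeR called both lower in scMSC, beside 24.9% of all genes, and Cybc1 lower in scivMSC, beside 62% of all genes, where its log2 fold change was -2.12 (SE 0.37, edgeR adjusted p = 0.00014), and with TMM scaling it called neither gene in either group. The Nox1, Nox3, Nox4 and Duox oxidases of other tissues, with their partners, were not tested, being under the filter or not among the rows used here.

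Of 13 genes that regulate assembly of the oxidase, 12 were tested. Pak1, a kinase that phosphorylates the organiser, and Vav3, an exchange factor for Rac, met the filter on low values through the DNCB libraries alone and so had to be high there. Of the other 10, 3 were called higher in DNCB than in Solvent, beside 15.6% of all genes, and 1 lower, beside 4.87%. Pik3cg, 1 of those 3, reached an FPKM of 1 in 5 libraries, those of DNCB, Solvent replicate 1 and scMSC replicate 1. It too needed the DNCB libraries to meet the filter. Prkcd, a protein kinase C that acts on the organiser, had a log2 fold change of 1.75 (SE 0.39, edgeR adjusted p = 0.00391). Hvcn1, the proton channel that balances the charge moved by the oxidase and is also abundant in B cells, fell by 1.88 (SE 0.46, adjusted p = 0.0074), from 9.79, 4.98 and 3.20 FPKM in Solvent to 1.28, 2.61 and 0.995 in DNCB. The summed FPKM of 8 B cell markers lay between 45.4 and 146 in Solvent and between 12.7 and 35.6 in DNCB, and their part in the Hvcn1 level was not tested. From DNCB, 6 of these 10 regulators were called lower in scMSC, beside 24.9% of all genes, and 8 of 10 in scivMSC, beside 62%. Under TMM scaling the counts were 2 and 4, beside 12.3% and 18.9%, and Rap1a was called higher in scivMSC at 1.103. Pik3cg and Prkcb were among those called lower in both MSC groups with total counts. Prkcb reached an FPKM of 1 in 5 libraries, those of DNCB and Solvent replicates 1 and 2. Both genes thus needed the DNCB libraries to meet the filter, which favours a call lower than DNCB.

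The NADPH that the oxidase consumes comes largely from the pentose phosphate pathway, and 3 of its 6 tested genes were called higher in DNCB, beside 15.6% of all genes. G6pdx, the enzyme of the first step, had a log2 fold change of 2.92 (SE 0.37, edgeR adjusted p = 3.52e-05), and Pgd, which makes the second NADPH, had 2.56 (SE 0.41, adjusted p = 0.000295). Tkt, of the non-oxidative branch, had 2.24 (SE 0.50, adjusted p = 0.00412). G6pdx averaged 3.14 ± 1.04 FPKM in Solvent, 23.8 ± 5.03 in DNCB, 3.32 ± 0.745 in scMSC and 3.31 ± 1.29 in scivMSC (SD, n = 3 each), so that the DNCB mice again stood apart. All 3 were called lower than DNCB in both MSC groups, beside 24.9% of all genes in scMSC and 62% in scivMSC, and again under TMM scaling, beside 12.3% and 18.9%. Taldo1, of the non-oxidative branch, went the other way under TMM scaling and was called higher in scivMSC than in DNCB at 1.49, where it was at -0.20 with total counts.

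Genes that handle oxidants were also listed. In DNCB against Solvent 0 of 7 tested were called by edgeR, with a median of -0.14, and 1 (Gpx4) had an unadjusted p under 0.05. DESeq2 and limma also called 0 of 7. In scivMSC against DNCB, 3 of 7 were called higher, where 1.43% of all genes were called higher. They are Prdx2, Cat and Gpx1, which remove peroxide and are abundant in red cells, and they are named here after their values were seen. In that comparison 8 of 8 tested erythroid markers and 8 of 8 platelet markers were called higher under TMM scaling, with medians of 1.94 and 2.05, where the medians with total counts were 0.23 and 0.34, and their part in these genes was not tested. Under TMM scaling 7 of 7 oxidant genes were called higher in scivMSC, with 20.6% of all genes, and 4 of 7 in scMSC, with 8.74% of all genes, while edgeR with total counts called 0 of 7 in scMSC, with 3 at an unadjusted p under 0.05. DESeq2 called 4 of 7 there and limma 0. Myeloperoxidase (Mpo), which turns the oxidase's peroxide into hypochlorous acid in neutrophil granules, was under the filter, at 0 to 0.591 FPKM.

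Of 4 transcription factors of phagocyte lineages, 2 rose in DNCB, Spi1 and Cebpe, beside 15.6% of all genes. Cebpe reached an FPKM of 1 in 4 libraries, those of DNCB and scMSC replicate 3. It needed the DNCB libraries to meet the filter on low values and so had to be high there. Irf8, a factor of monocytes and dendritic cells that B cells also express, had a log2 fold change of -0.97 (edgeR adjusted p = 0.151) and was not called, but with TMM scaling it was called lower at -1.09 (edgeR adjusted p = 0.00386), beside 11.5% of all genes. Irf8 reached an FPKM of 1 in 3 libraries, Solvent replicates 1 and 2 and DNCB replicate 2. It needed each of them to meet the filter, which favours lower values in DNCB than in Solvent and in the MSC groups than in DNCB. Cebpa, a factor of early granulocyte development, was at 1.08 and was not called (edgeR adjusted p = 0.174). Spi1, a master regulator of myeloid genes, had a log2 fold change of 2.93 (SE 0.39, edgeR adjusted p = 6.02e-05), and averaged 4.45 ± 1.04 FPKM in Solvent, 34.0 ± 8.32 in DNCB, 5.29 ± 0.316 in scMSC and 2.29 ± 1.16 in scivMSC (SD, n = 3 each). Cebpe, a factor of late granulocyte maturation, had 3.86 (SE 0.63, adjusted p = 0.000362), from 0.226 ± 0.00670 FPKM in Solvent to 3.33 ± 0.641 in DNCB (SD, n = 3 each). The Solvent level of Cebpe rested on 19 estimated counts in each mouse, or about 4.75 fragments, so its small SD there says little. Spi1 and Cebpe were called lower than DNCB in both MSC groups, beside 24.9% of all genes in scMSC and 62% in scivMSC. Irf8 was called lower in scivMSC too. Under TMM scaling both were again called lower in scMSC, beside 12.3% of all genes. In scivMSC TMM scaling called Spi1 alone lower, beside 18.9% of all genes, and Cebpa higher, beside 20.6%, with Cebpe not called, at -0.88.

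The genes whose pattern was most like each subunit were taken by Pearson's r of log2(FPKM + 1) over the 12 libraries, as a description. Pairs of subunits had r from 0.897 (Ncf4 and Rac2) to 0.986 (Cyba and Cybb). The 3 genes most like Cyba were Osbpl9 (0.997), Kdm7a (0.993) and Gpi1 (0.992), and for Cybb they were Idh1 (0.992), Clic1 (0.989) and Tmed10 (0.987). Among those most like Ncf1 were Osbpl2 (0.994) and Rin3 (0.991). For Ncf4 they were Aldh3b1 (0.992), Abcd2 (0.991) and Sirpb1a (0.989), and for Rac2 Cotl1 (0.997), Wsb1 (0.996) and Lbr (0.995). These points share the libraries, the groups and the haemoglobin share, and no gene is on more than 1 of these short lists.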

How the data were processed

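Blood RNA of 12 mice was sequenced on an Illumina system. The submitters' processing notes name Bowtie 0.12.2, HISAT2 2.0, StringTie 1.3.0 and build mm8, without roles. The start of 20738 of 21469 shared symbols (96.6%) lay within 10 kb of RefSeq GRCm38.p6, so that coordinates are given as GRCm38. The authors deposited an estimated count and an FPKM value per gene and library. The deposited counts are whole, but 29.04% of values from 1 to 12 are 4. Counts were tested as deposited with edgeR 4.0.16 (R 4.3.3, quasi-likelihood, total-count scaling, 4 group means, Benjamini-Hochberg over 5527 genes). Ratios used exact permutation tests. DESeq2 1.42.0, limma 3.58.1 and the other alternatives are given in the closing section. On simulated data with 200 of 5527 genes changed 8-fold in DNCB against Solvent, edgeR recovered 195 with 12 false calls. The subunits' folds in that comparison were smaller, 2.52 to 5.86, and no shift of the other genes was simulated. The recovery therefore does not measure how reliable the calls reported here are. The members and gene lists were chosen with earlier results of these data known. Named genes were the 5 members, Rac1, up to 3 genes per list called in DNCB against Solvent with the largest change, and the 3 most alike in pattern to each member. Some genes that this rule covers are not reported here. Replicates are separate mice.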

Additional observations from a re-analysis of the deposited data

How the results depend on the processing

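Over 109 alternative values per comparison for the 5 subunit genes, the fold changes of scMSC and of scivMSC against DNCB kept direction and call in 109 of 109, and those of DNCB against Solvent kept direction in all and lost the call in 5, of Cybb and Rac2 with 1 library left out. Leaving out each library gave 3 to 5 called genes for DNCB against Solvent, 0 to 2 for scivMSC against scMSC and 2 to 4 for scivMSC against Solvent. In scivMSC against scMSC, 0 were called (1 as reported) with TMM, DESeq2, totals without haemoglobin or the 2 groups alone, and in scMSC against Solvent 1 was called (0 as reported) with the 2 groups alone. In scivMSC against Solvent, 0 were called (3 as reported) with TMM or DESeq2. Of the pairs of subunits, 6 passed with log2(FPKM + 1) against 2 as reported, and 2 to 4 with a library left out. Ratios to Ptprc passed for 2 of 5 with Itgb2 as the reference and for 3 to 5 with a library left out. The cause of these changes was not tested.

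Signs turned mostly with the scaling, given here as TMM and then DESeq2. In scivMSC against scMSC the log2 fold changes became 0.203 and 0.230 for Cyba, 0.061 and 0.084 for Cybb, 0.373 and 0.404 for Ncf1, and 0.559 and 0.6 for Ncf4, and Rac1 ran from -0.022 to 0.190 with a library left out. In scMSC against Solvent they became 0.110 and 0.106 for Cyba, 0.218 and 0.210 for Ncf1, 0.385 and 0.379 for Ncf4 (0.043 without haemoglobin in the totals), and 0.319 and 0.313 for Rac1. With a library left out the ranges there were -0.631 to 0.017 for Ncf1, -0.432 to 0.085 for Ncf4 and -0.393 to 0.060 for Rac1, each crossing 0 without Solvent replicate 1. In scivMSC against Solvent they became 0.312 and 0.336 for Cyba, 0.591 and 0.614 for Ncf1, 0.944 and 0.978 for Ncf4, and 1.369 and 1.401 for Rac1 (0.266 without haemoglobin in the totals, and -0.317 to 0.135 with a library left out). In scivMSC against DNCB Rac1 became 0.681 and 0.677.

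The replicate numbers were not taken to pair mice across groups. The correlations of 18 same-numbered pairs ran from -0.200 to 0.173 and 3 were over 0.1, while 7 of 12 libraries correlated best with their own number, a hint from the data and not from the design. With the replicate block the counts of called genes were 5, 5, 5, 1, 0 and 3, as in the fit without it. Cybb could not be tested with a mean FPKM of at least 5. Outside Solvent replicates 1 and 2, counts were lowest for Cybb among the 5 genes, and its lowest value rested on about 31 fragments. Squared differences between mice of a group averaged 17.4 to 41.2 times the counting variance (chi-square per gene, 5906 to 11290 genes per pair). The spread between mice thus exceeded counting error on this average. The average takes in the haemoglobin genes, and their weight in it was not tested.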
